A study of Homo sapiens with 3 samples.

Results

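UBB and RPS27A are genes that encode ubiquitin, and they were taken as members by name, 2 of 19866 protein-coding genes with a position on the chromosomes. Every listed peak was taken that lay inside a member gene or within 5 kb of it. The peaks come from chromatin immunoprecipitation sequencing of HCT116, a human colorectal cancer cell line, which per the series title expressed Flag-tagged VCP. Antibodies to VCP and to the Flag tag gave 1 library each, and 1 more came from input, from cells fixed for 10 minutes in 1% formaldehyde and chromatin cut with micrococcal nuclease. All of these cells carried the tagged protein, and a library from cells without the tag was not analysed here. No antibody has a replicate, so nothing below is a test between antibodies. Peak lists do not measure expression, so the colon label of the cells was not checked.

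Ubiquitin is a small protein that is joined to other proteins, often as a chain, and marks many of them for the proteasome. It is never made alone. UBB encodes a polyubiquitin, a string of ubiquitin units that are cut apart after translation, and is known to be induced by stress. RPS27A encodes ubiquitin fused to a protein of the small ribosomal subunit, from which it is cut off. VCP is an ATPase that binds ubiquitin-tagged proteins through adaptors such as UFD1 and NPLOC4 and pulls them out of complexes, membranes and chromatin. Genes such as UBB and RPS27A thus make the tag by which VCP finds its substrates. A peak at such a gene is a position on DNA and says nothing of ubiquitin supply or of the proteins VCP acts on.

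Each list held 1 peak at these genes. The VCP peak was at UBB and the Flag peak at RPS27A, and neither gene had a peak in both lists. Of all protein-coding genes 5.40% had a VCP peak (1072 genes) and 20.4% had a Flag peak (4060 genes). A peak in at least 1 of the lists was present at 23.3%, and a peak in both at 2.52%. A VCP peak without a Flag peak, as at UBB, was present at 2.88%, and a Flag peak without a VCP peak, as at RPS27A, at 17.9%. With 2 genes, chosen when their peaks were already known, no share of members is read against these numbers.

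The sequence beside the UBB peak and the sequence under the RPS27A peak are printed here to show the DNA between the VCP peak and a UBB start, and the DNA of the RPS27A peak itself. Both come from the RefSeq promoter table of GRCh38.p14, which has windows for both genes, each from 250 bases before a transcript start to 50 after it. The UBB window, chr17:16381040-16381339 on the plus strand, begins 6 bases beyond the end of the VCP peak and holds none of the peak itself. The RPS27A sequence is the whole Flag peak, chr2:55232340-55232587 on the plus strand, joined from windows of RPS27A and its neighbour CLHC1. Capitals mark matches to the motifs searched.
UBB: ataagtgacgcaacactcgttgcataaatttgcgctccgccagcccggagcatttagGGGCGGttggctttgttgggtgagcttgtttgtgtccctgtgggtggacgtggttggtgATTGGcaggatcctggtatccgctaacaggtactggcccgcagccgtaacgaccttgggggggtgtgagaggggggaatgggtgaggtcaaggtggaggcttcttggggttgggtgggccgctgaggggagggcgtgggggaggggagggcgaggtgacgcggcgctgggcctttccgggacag
RPS27A: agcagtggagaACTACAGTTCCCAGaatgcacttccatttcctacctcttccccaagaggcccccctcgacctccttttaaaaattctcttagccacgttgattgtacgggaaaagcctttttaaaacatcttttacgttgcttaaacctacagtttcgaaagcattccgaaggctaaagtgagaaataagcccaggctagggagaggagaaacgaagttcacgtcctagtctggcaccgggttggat

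Short motifs were searched on both strands. These were the TATA box (letters TATAAA), the CCAAT box under its own letters, the GC box (letters GGGCGG), the ETS core (letters CCGGAAG) and the palindrome of NRF1. Heat shock patterns were searched as the pair GAANNTTC, as the pair in the other order, TTCNNGAA, and as the triples that extend and contain them. In the UBB window CCAAT matched once, on the minus strand, 134 bases before the start at 16381290. GGGCGG matched once, 193 bases before it. Among 22049 promoter windows of protein-coding genes 34.7% hold CCAAT and 56.2% hold GGGCGG, so both are common. The heat shock pairs are present in 5.69% of windows in the first order and 6.73% in the second, and neither occurred in these 300 bases. None of the 9 motifs was in the RPS27A peak. The capitals there mark ACTACANNTCCCAG, a pattern known from sites of the zinc finger factor ZNF143. The match lies in the part of the peak taken from the CLHC1 window, and the windows of RPS27A itself hold none. The pattern was added after the sequence had been seen, and 1.38% of windows hold it. G and C made up 62.7% of the UBB window and 46.4% of the RPS27A peak, against a median of 62.3% over the windows.

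UBB lies on chromosome 17 from 16380779 to 16382745. Its VCP peak spanned 16380824 to 16381033, a width of 210 bp, with the summit at 16380949. The fold enrichment, the authors' ratio of summit reads to local background with 1 added to both, was 5.04, with -log10 q of 3.45. By fold it was number 19 of 1816 VCP peaks (top 1.05%), and by -log10 q number 17. It was number 2 by fold of the 92 VCP peaks on its chromosome. Among the 977 VCP peaks in or within 5 kb of protein-coding genes it was number 13 by fold. The median fold of the VCP list was 3.28. The UBB peak was therefore near the top of a list of weak peaks.

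Reads at the summit were recovered from the fold and the p-value. They came to 17 at UBB (exact Poisson 95% interval 9.90 to 27.2), over a background of 2.57 reads. The median VCP peak rested on 10 reads, and the background at UBB was close to the list's median of 2.36. A summit over that background needed 9 reads to reach the lowest listed -log10 p of 3. The intervals given for reads and shares reflect counting error alone. Amplified reads are not independent molecules, so the intervals for reads can be too narrow.

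The UBB summit lay 170 bp inside the lower-coordinate end of the gene. The promoter table places 2 UBB starts, at 16381290 and 16381341, both on the plus strand. The summit was 341 bp and 392 bp upstream of them. RefSeq's outer gene start at 16380779 is further upstream still, so the peak sits inside the annotated gene but before both of these starts. Of the 341 VCP summits within 1 kb of a protein-coding start in the table, 52.2% were upstream of the nearest start (exact 95% interval 46.8 to 57.6), and 33.7% were 100 to 400 bp upstream. With positions upstream of the start written as negative, their median was -24 bp and their quartiles were -186 and 125 bp. The UBB summit was thus farther upstream than the quartile on that side. The only other gene within 5 kb of it was the long non-coding RNA gene LOC124903937, 1603 bp away.

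The Flag list had no peak at UBB. The nearest spanned 16286221 to 16286663, inside PIGL, an enzyme gene of glycosylphosphatidylinositol anchor synthesis, 94.1 kb from UBB, with a fold of 5.20 and 16 reads. A Flag summit needed at least 7 reads to be listed at the lowest background of that list, 1.85 reads, and more where the background was higher. Flag signal below that at UBB was not detectable at this depth and is not shown to be absent. Of the 1072 protein-coding genes with a VCP peak in or within 5 kb, 500 also had a Flag peak (46.6%). Among the 13 VCP peaks near genes that were at least as strong by fold as that at UBB, UBB included, 8 shared at least 1 bp with a Flag peak (61.5%). Over all 977 VCP peaks near genes 171 did (17.5%). The UBB peak did not. The next VCP peak on chromosome 17 was 914 kb from UBB and had a fold of 3.28 on 8 reads.

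**Figure D1:**
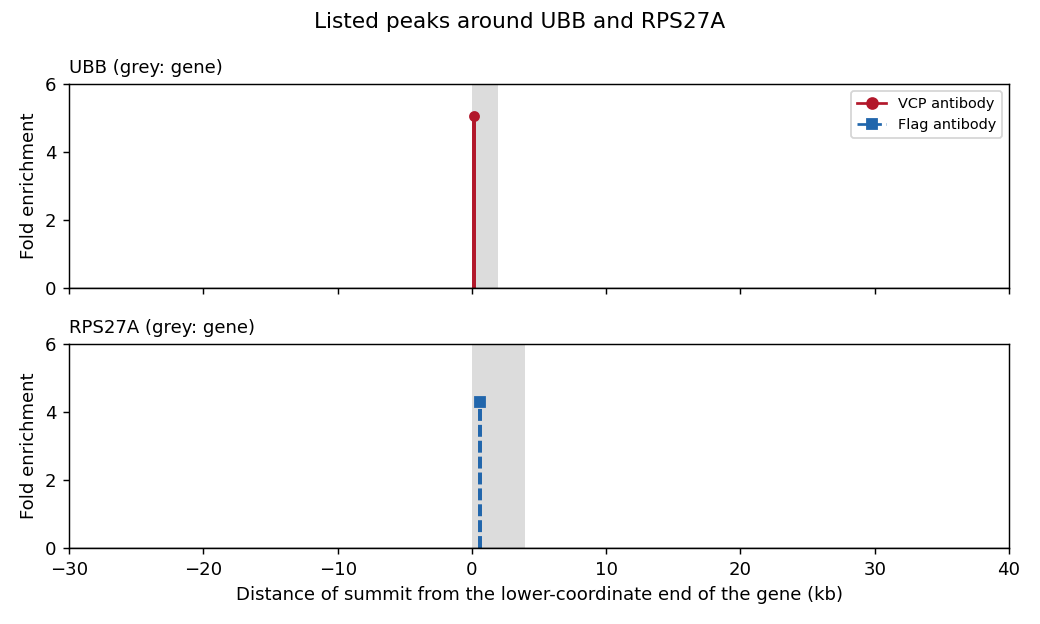
Listed peaks around UBB and RPS27A, drawn as the summit's distance in kb from the lower-coordinate end of the gene (x axis) against fold enrichment (y axis), with VCP peaks as red lines and circles and Flag peaks as blue dashed lines and squares. UBB has 1 VCP peak, RPS27A has 1 Flag peak, and no other peak of either list is in view.

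RPS27A lies on chromosome 2 from 55231903 to 55235853. Its Flag peak, whose sequence is printed above, spanned 55232340 to 55232587 (width 248 bp), with the summit at 55232516, which is base 177 of that sequence. The fold was 4.28 and -log10 q 2.40, number 867 of 5719 by fold (top 15.2%) and number 989 by -log10 q. Its summit held 13 reads (95% interval 6.92 to 22.2). The background was 2.27, where 8 reads were needed to reach -log10 p of 3. The lower bound of the interval is below that number.

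The RPS27A peak belongs as much to its neighbour as to RPS27A. CLHC1, a gene that runs the other way, ends at 55232563 within the annotated RPS27A gene. Its start there is 47 bp from the summit, which is inside CLHC1. Another CLHC1 start, at 55232293, is 223 bp away, and the summit is upstream of that one. The RPS27A starts at 55232678 and 55232688 are 162 bp and 172 bp downstream of the summit, and another start, at the outer end of the gene, is 613 bp upstream of it. Of the 1825 Flag summits within 1 kb of a protein-coding start, 57.8% were upstream of the nearest one (exact 95% interval 55.4 to 60.0). By that measure the RPS27A summit counts as downstream, since the CLHC1 start at 55232563 is nearest. The translation factor gene MTIF2 is 4079 bp from the summit on the other side of RPS27A.

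The VCP list had no peak near RPS27A. Its nearest one lay 184 kb away, at 55419661 to 55420222 beside CCDC88A, with a fold of 4.20 and 12 reads, and the Flag list had a peak at the same place (fold 4.79, 14 reads). A VCP summit needed at least 7 reads at that list's lowest background of 1.74, so a weaker signal at RPS27A was below what the list can show.

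**Figure D2:**
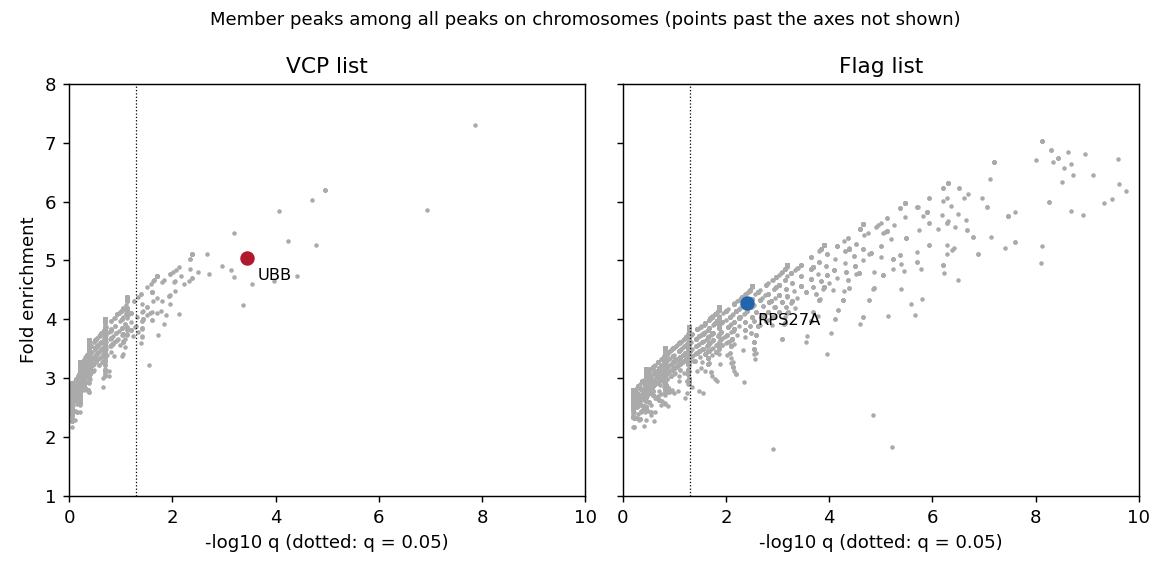
Fold enrichment (y axis) against -log10 q (x axis) for peaks on chromosomes, VCP on the left and Flag on the right, in grey, with the peaks at ubiquitin-coding genes coloured and named. Points past the axes are not shown. UBB stands at the upper end of the VCP list with a fold of 5.04, while RPS27A, with a fold of 4.28, lies inside the body of the Flag list.

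Both member peaks had a q of at most 0.05. Of all VCP peaks 6.50% reached that, and of all Flag peaks 33.8%. A VCP peak that strong was present in or within 5 kb of 0.534% of protein-coding genes (106 genes, UBB among them), and a Flag peak that strong at 9.13%. The authors' q was 0.00035 at UBB and 0.004 at RPS27A. The 17 reads at UBB and the 13 at RPS27A came from different libraries, and their intervals overlapped, so the genes cannot be ordered by reads. Their widths of 210 bp and 248 bp were near the medians, 212 bp among VCP peaks and 233 bp among Flag peaks. Within 1 Mb UBB had 2 VCP and 5 Flag peaks, and RPS27A had the same numbers, against medians of 1 and 5 over protein-coding genes. Within 30 kb each had its own peak and no other of either list.

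**Figure D3:**
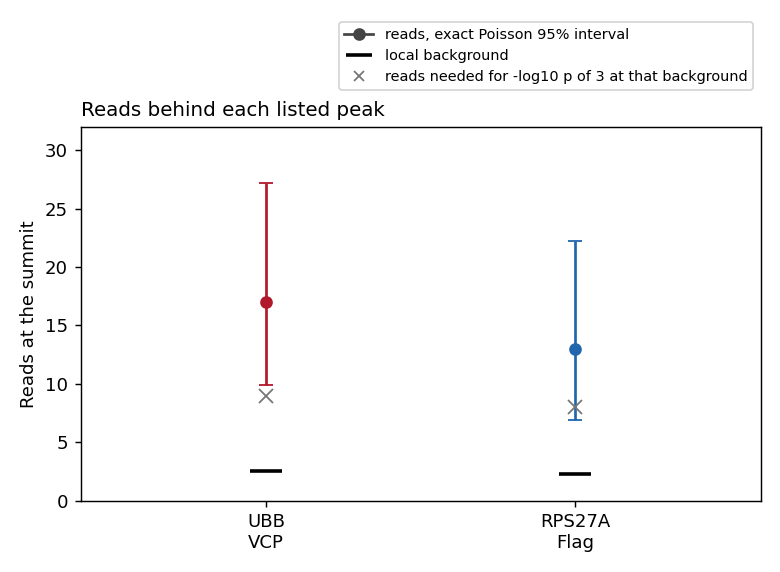
Reads at the summit of each member peak (y axis) with the exact Poisson 95% interval, red for VCP at UBB and blue for Flag at RPS27A. Black dashes mark the local background and crosses the reads needed over it for -log10 p of 3. The counts, 17 and 13, have overlapping intervals, and the cross lies inside the interval at RPS27A and below it at UBB.

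Reads of ubiquitin genes can match copies elsewhere, since the gene table lists 25 pseudogenes named for UBB and RPS27A. None had a VCP or Flag peak inside it or within 5 kb, which does not show where reads with several matches were placed. The treatment of reads with several matches is not stated in the labels. The ubiquitin units of UBB are alike in sequence, and its peak lay toward 1 end of the gene, before the starts given above.

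Other genes had peaks like those of the members. With a VCP peak but no Flag peak within 5 kb, 571 genes could be matched to UBB, and those nearest in log2 fold over this 1 list included EIF4A2 (fold 5.10), which encodes a translation initiation helicase, and the neighbours EMC1 and MRTO4 on 1 shared peak (4.85). The EIF4A2 summit lay inside its gene, 264 bp from an outer end, and the summit shared by EMC1 and MRTO4 lay between them, 159 bp from the one and 122 bp from the other. RPS27A had no distinctive value, since 30 Flag peaks, its own included, had exactly its fold of 4.28. The 5 genes that come first by letter among those tied were ALDH16A1, BACH2, CIMIP2A, CMBL and EDEM2, the last a gene of the degradation of misfolded glycoproteins.

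Genes that handle ubiquitin or act with it were counted by the same rule. The shares in each list below stand beside 5.40% of all protein-coding genes for VCP and 20.4% for Flag. Among 11 genes of ubiquitin activation and release, 0 had a VCP peak and 3 a Flag peak (27.3%). These were USP5, which takes apart free ubiquitin chains (fold 4.84), USP9X, a ubiquitin protease (4.21), and PSMD14, the proteasome's own ubiquitin protease (2.73). The USP5 peak is also within 5 kb of CDCA3 and GNB3. The summits counted for USP9X and PSMD14 lay 687 bp and 400 bp outside their genes. At PSMD14 the -log10 q was 0.21, so its q was above 0.05. The activating enzymes UBA1 and UBA6 had none in either list.

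Of 18 genes of ubiquitin-like modifiers 2 had a VCP peak (11.1%) and 3 a Flag peak (16.7%). GABARAP, an autophagy modifier, had both, with a fold of 3.85 for VCP and 5.11 for Flag, at summits it shares with CTDNEP1 and PHF23. UFM1, a modifier used at the endoplasmic reticulum, had a VCP peak with a fold of 4.74 at 217 bp from an outer end. MAP1LC3B (3.08) and ATG12 (3.06), both of autophagy, had Flag peaks. The MAP1LC3B peak is also within 5 kb of FBXO31. At ATG12 the summit lay 3215 bp outside the gene and was also within 5 kb of AP3S1. Its -log10 q was 0.46, so its q was above 0.05.

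VCP and its ubiquitin adaptors, 31 genes, had 2 with a VCP peak (6.45%) and 8 with a Flag peak (25.8%). UFD1 was in both lists, but at different places: its VCP summit (fold 3.74) lay 1976 bp outside the gene and its Flag summit (fold 4.54) 375 bp outside, beside CDC45. NPLOC4, the partner of UFD1, had a VCP summit 4283 bp outside the gene (fold 3.23), nearer to FAAP100. The -log10 q was 0.60 at the UFD1 VCP peak and 0.39 at the NPLOC4 peak, so neither had q of at most 0.05. In the Flag list VCP (5.75) and FAF1 (4.92) had higher folds than UFD1, and NSFL1C (4.30) came next after it. The Flag summit at VCP lay inside the gene, 3598 bp from its nearer end, and that at FAF1 lay deep inside its gene, 245372 bp from the nearer end.

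RPS27A doubles as a ribosomal protein gene. Of 76 other cytosolic ribosomal protein genes 5 had a VCP peak (6.58%) and 25 a Flag peak (32.9%). The highest fold in their best peaks was at RPL17 for VCP (4.20) and RPL11 for Flag (5.62). None of these VCP peaks had q of at most 0.05, and their highest -log10 q was 1.13, at RPL17. RPL7A (4.03 for VCP, 4.84 for Flag), RPL17 (4.20 and 4.33) and RPL35 (3.91 and 3.42) had peaks in both lists. RPS27A had a Flag peak alone. At RPL17 the peaks were at different places, the VCP summit inside the gene and the Flag summit 1408 bp outside it. The Flag peak at RPL35 had -log10 q of 0.81, so its q was above 0.05. The median fold of the best Flag peak per gene was 3.67 for these genes and 3.67 for all protein-coding genes with a Flag peak. The RPS27A fold of 4.28 was above both medians.

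Heat shock chaperone genes share stress induction with UBB. Among 20 of them 1 had a VCP peak (5.00%) and 9 a Flag peak (45.0%). HSP90AB1, a cytosolic chaperone, had both, with a fold of 3.62 for VCP and 3.59 for Flag. The -log10 q of its VCP peak was 1.04, so its q was above 0.05, while that of its Flag peak was 1.68. AHSA1 (5.11), HSPD1 and HSPE1 on a shared peak (4.91) and HSPA1A and HSPH1, tied at 4.57, had the highest Flag folds. The summit counted for HSPA1A lay 1088 bp outside it and was also within 5 kb of HSPA1L, while that of HSPH1 was inside its gene. In the VCP list UBB at 5.04 had a higher fold than any gene of these 5 related lists, whose highest was UFM1 at 4.74. UBB was chosen when its peak was already known, so this order is not a result about ubiquitin genes.

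**Figure D4:**
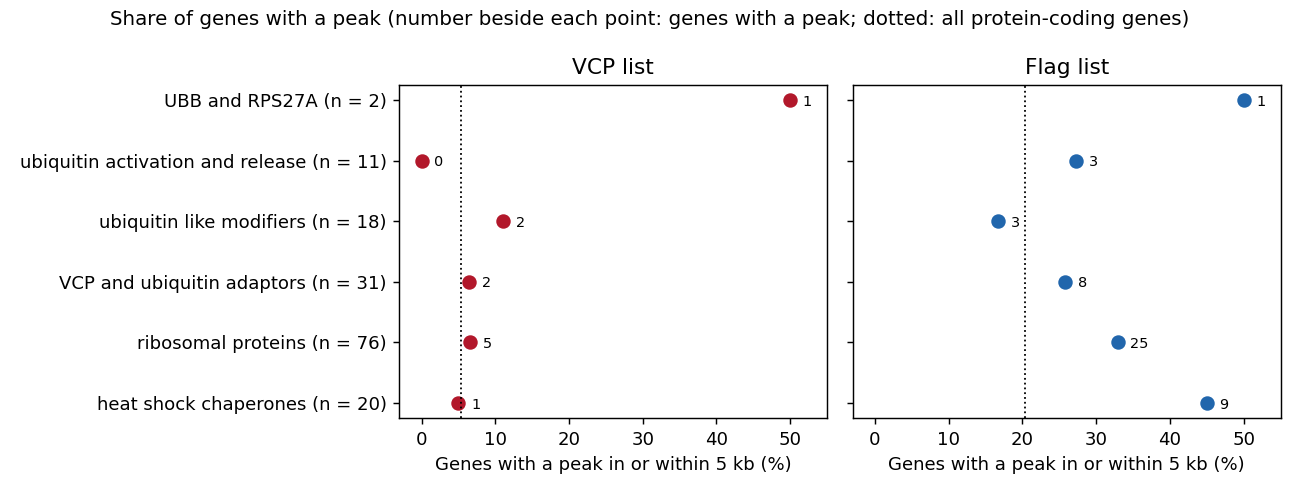
Share of genes with a peak in or within 5 kb (x axis, percent) for UBB with RPS27A and for 5 related lists (y axis), VCP peaks on the left and Flag peaks on the right, with the number of genes beside each point. The dotted line is the share of all protein-coding genes, 5.40% for VCP and 20.4% for Flag, and the top row rests on 1 gene of 2 in each panel.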

How the data were processed

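Peak lists of 2 libraries (VCP and Flag antibody) were used, 1 library each. The input library was not analysed here. The submitters' processing notes name MACS2 2.1.0, Bowtie 1.1.2, Trimmomatic 0.33, bcl2fastq 2.17 and the build hg38. No settings are given in the labels. Each deposited list gives the authors' fold ratio, the -log10 of p and of q, and a score that was not used. The lowest deposited -log10 p was 3 in both lists.

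Positions were compared with RefSeq GRCh38.p14 genes on chromosomes 1 to 22, X and Y, and 13 VCP and 27 Flag peaks on other contigs were left out. Positions are 1-based. Whole reads and a background were sought that gave both the deposited fold and the deposited p. The fold was taken as the ratio of reads to background with a pseudocount of 1 added to both. The p was taken as the Poisson tail above the reads, without a pseudocount. All peaks matched within 0.001 on the -log10 p scale. Shares have exact binomial (Clopper-Pearson) intervals. Scripts ran in Python 3.11.15 with scipy 1.17.1 and were tested on simulated data.

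The members and gene lists were chosen with earlier results of these data known. Named genes were the members, genes near their peaks, the nearest peaks, the 5 genes nearest in log2 fold to UBB and to RPS27A, and in each related list the genes with peaks in both lists and up to 4 per antibody by fold. Some genes that these rules pick are not reported here. Alternatives were other windows, a q threshold, summits in place of intervals, other ranks and other overlap rules.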

Additional observations from a re-analysis of the deposited data

How the results depend on the processing

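Of 28 alternative values 22 stayed within 1.5 times of the reported count or rank or within the interval of the reported share, and 6 moved, all of them shares over all protein-coding genes. With a window of 1 kb these shares were 4.65% for VCP and 17.6% for Flag, with 10 kb they were 6.17% and 23.6%, and with q of at most 0.05 they were 0.534% and 9.13%. These differences follow from wider or narrower windows and from fewer peaks. The peak at UBB and the peak at RPS27A were counted in all 4 alternatives of window, q and summit. These counts could not move, because the members were chosen with their peaks known. Both summits lie inside the genes, both q were below 0.05, and no other listed peak was within 30 kb. The rank of the UBB peak was 19 by fold, 17 by -log10 q and 13 among peaks near genes. Overlap between the lists at the members was 0 under the 3 rules. It could not be otherwise, since the nearest peak of the other list was 94.1 kb from UBB and 184 kb from RPS27A. The tally of values that stayed is therefore no measure of how robust the member peaks are. No paired analysis was possible because each antibody had 1 library. Depth of 17 reads at UBB and 13 at RPS27A limits every value.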

Other observations

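The pattern ACTACANNTCCCAG, seen in the RPS27A peak, was counted over the genes that have promoter windows, as a description. Of 290 genes with it in a window 41 had a Flag summit in a window (14.1%, exact 95% interval 10.3 to 18.7), against 991 of 15843 genes in all (6.26%). For VCP the numbers were 2 of 290 (0.690%, 0.0836 to 2.47) and 163 of 15843 (1.03%). The pattern was picked after it was seen under a Flag peak, and that peak is counted here through CLHC1, whose window holds both. The 290 genes are also part of the 15843. Neighbouring genes can share a window and a summit, as RPS27A and CLHC1 do. The shares are therefore no test, and a link between the pattern and Flag peaks was not tested.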
